A study of Mus musculus with 2 samples.

Results

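Protein-folding chaperones of the cytosol and the endoplasmic reticulum (ER), with their mitochondrial relatives, were compared between exhausted and effector TEa cells. The members were taken by gene name among the protein-coding rows of the deposited read count table. The names cover the HSP70, HSP110, HSP90, HSP60/HSP10 and small heat shock protein families, the J-proteins of classes A, B and C, the BAG proteins, the chaperonin TRiC, the protein disulfide isomerases named Pdia, and calreticulin, calnexin and Hyou1. This gave 96 members of 35275 rows, of which 22026 rows were protein-coding. Of the 96 members, 72 had at least 50 reads over both libraries and are called measured here. The other 24 held 112 reads in all in the exhausted library and 104 reads in the effector library, and 7 of them had 0 reads in both.

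TEa cells are CD4 T cells whose transgenic receptor sees a peptide of I-E alpha, a class II chain that BALB/c mice carry, and the series asked how they respond to abundant or moderate amounts of that antigen. In the exhausted group, TEa cells of the C57BL/6 strain were transferred into CB6F1 mice, which are hybrids of BALB/c and C57BL/6 and carry the antigen in their own tissues. In the effector group, TEa cells of the same strain were transferred into wild-type C57BL/6 hosts with a BALB/c skin graft. Each group is 1 library of TEa cells sorted from splenocytes, and host strain, graft and antigen amount change together and cannot be told apart. The labels give neither the number of mice behind a library nor the time of sorting.

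The exhausted library held 8508129 counted reads and the effector library 7844445. All 4 T cell markers (Cd3e, Cd3d, Cd3g and Cd4) were abundant, with 45070 summed reads in the exhausted library and 29304 in the effector library, a 1.42-fold ratio (1.40 to 1.44). Cd8a, Ms4a1, Sdc1 and Tnfrsf17, which mark CD8 T cells, B cells and plasma cells, had 0 reads in both libraries. Of the B cell genes Cd79a had 18 and 8 reads and Cd79b 2 and 12 reads in the exhausted and effector libraries. The CD8 T cell list summed to 81 reads in the exhausted library and 164 in the effector library, and the plasma cell list to 22 and 47 reads in the exhausted and effector libraries. The 5 myeloid markers summed to 209 reads in the exhausted library, 183 of them from Itgam, and to 85 in the effector library, 22 of them from Itgam. Lyz2, with 10 and 37 reads, and Csf1r, with 4 and 18 reads in the exhausted and effector libraries, went the other way. The 3 NK cell markers summed to 229 reads in the exhausted library, all from Klrb1c, and to 93 in the effector library, where Klrb1c had 36, Klrd1 52 and Ncr1 5. The 4 hemoglobin genes summed to 12 and 108 reads in the exhausted and effector libraries. The part of these cells in the chaperone values was not tested, and in bulk RNA fewer cells of a type cannot be told apart from less RNA per cell.

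Chaperones bind polypeptides that are not yet folded, or no longer folded, and keep them from aggregating. HSP70 proteins do so in cycles of ATP hydrolysis that J-proteins start and nucleotide exchange factors end; HSP90 acts later on near-native clients such as kinases and receptors, and TRiC encloses cytoskeletal proteins in a chamber. Heat shock factor 1 (HSF1) is known to drive the cytosolic genes through heat shock elements, and the unfolded protein response drives the ER genes through ER stress elements, with T cell activation known to raise many of both.

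Each ratio is exhausted over effector on counts scaled by effective library size, and the range in parentheses is its 95% counting interval. With 1 library a group there is no replicate check and no p-value, and the intervals cover counting error only. A gene is called higher or lower where the ratio is at least 2-fold and the interval excludes equality. By this rule 15 of the 72 measured members (20.8%) were higher in the exhausted library, beside 6.65% of the 9999 measured genes of the whole table. Only 2 members (2.78%) were lower, Dnajc15 and Hspb11, beside 7.07% of all measured genes. Of the 55 members that were neither, 24 had an interval wholly above equality, 8 wholly below it and 23 across it. The median log2 ratio of the measured members was 0.26, against -0.002 for all measured genes. Together the 96 members took 183019 reads in the exhausted library, which is 2.15% of its reads (2.14 to 2.16), and 101667 reads in the effector library, which is 1.30% (1.29 to 1.30).

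Of the 15 higher members, 10 were HSP70, HSP110 or HSP90 genes, and the rest were class B J-proteins, Bag3 and Hspe1. The ATP-driven families other than TRiC had summed ratios near or above 2-fold, and the remaining families lay lower. The HSP110 family had a summed ratio of 2.95-fold (2.84 to 3.07), HSP90 of 2.83-fold (2.78 to 2.89), HSP70 of 2.08-fold (2.04 to 2.11) and HSP60/HSP10 of 1.96-fold (1.85 to 2.07). Class B J-proteins, class A J-proteins, disulfide isomerases, lectins and BAG proteins had 1.69, 1.50, 1.45, 1.31 and 1.27-fold. The class B and class A sums rest on Dnajb1 and Dnaja1, without which they were 1.08-fold and 0.999-fold. TRiC stood at 1.09-fold (1.07 to 1.11) and the class C J-proteins at 0.969-fold (0.948 to 0.991).

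**Figure D1:**
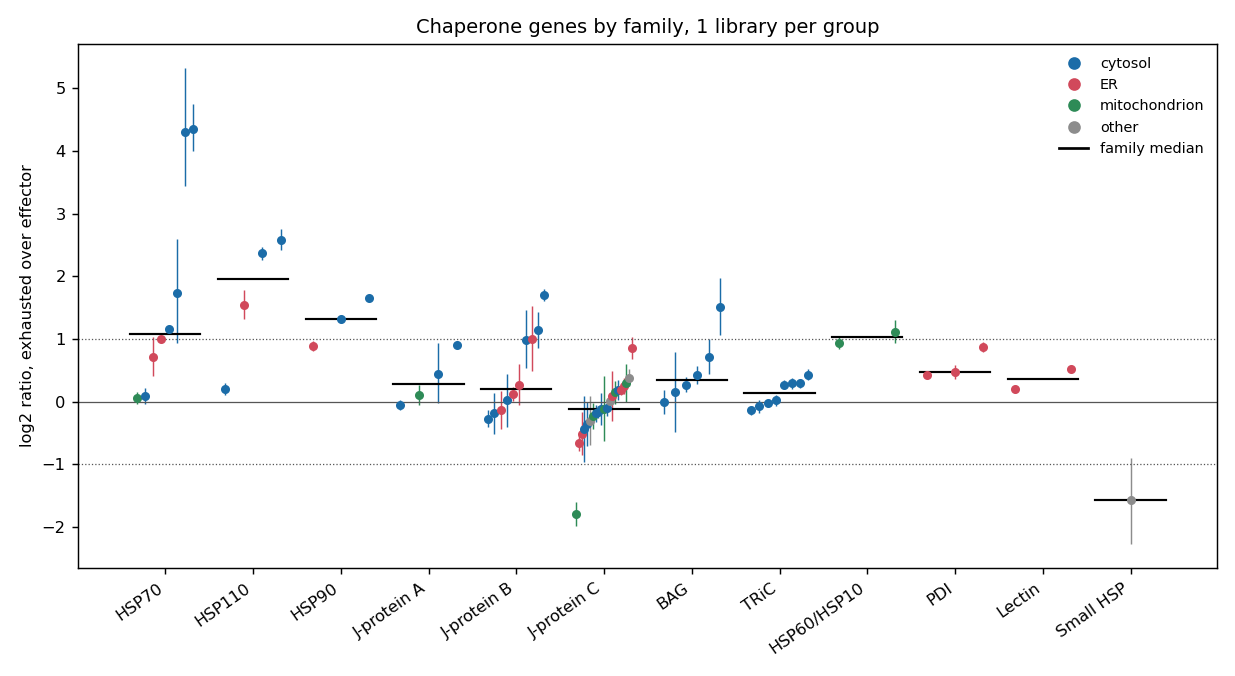
The plot shows the log2 ratio of exhausted over effector scaled counts for each measured member, by family and coloured by compartment; vertical lines are 95% counting intervals, black bars are family medians and dotted lines mark 2-fold. The HSP110 median is 1.96 and the HSP90 median 1.33, while the class C J-proteins have a median of -0.11 with Dnajc15 at -1.79.

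Among cytosolic HSP70 genes the stress-inducible pair stood furthest apart. Hspa1b (mm10 chromosome 17, 34956436 to 34959238, minus strand) had 1397 reads in the exhausted library and 63 in the effector library, a 20.5-fold ratio (15.9 to 26.8). Its neighbour Hspa1a (chromosome 17, 34969190 to 34972156, minus strand) had 235 and 11 reads in the exhausted and effector libraries, a ratio of 19.8-fold (10.8 to 40.1). These intronless genes encode the HSP70 that is scarce in unstressed cells and made on proteotoxic stress. Their transcripts share much sequence: 55.8% of the 75-base words of Hspa1b also occur in Hspa1a, so the split of reads between them is uncertain. Their summed reads, 1632 in the exhausted library and 74 in the effector library, gave 20.4-fold (16.1 to 26.1). Hspa1b held 85.6% of the pair's reads in the exhausted library (83.8 to 87.3) and 85.1% in the effector library (74.96 to 92.3).

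The constitutive HSP70, Hspa8 (HSC70, chromosome 9, 40800984 to 40805200, plus strand), supplied most HSP70 transcripts in both libraries. It had 29646 reads in the exhausted library and 12255 in the effector library, a ratio of 2.24-fold (2.19 to 2.28). On the TPM scale (transcripts per 1000000, computed from the counts and the gene lengths of the table), which allows levels of different genes to be compared, Hspa8 stood at 2616 TPM in the exhausted library and 1086 TPM in the effector library. Other loci share 68.6% of its 75-base words, mostly a processed pseudogene that was counted at 0 reads in both libraries. Hspa8 made up 65.0% of HSP70 reads in the exhausted library (64.5 to 65.4) and 60.4% in the effector library (59.7 to 61.0), while Hspa1a and Hspa1b together made up 3.58% (3.41 to 3.75) in the exhausted library and 0.365% (0.286 to 0.457) in the effector library. The inducible genes thus remained a small share of the family despite their ratio. Hspa2, best known for its role in testis, had 61 and 17 reads in the exhausted and effector libraries (3.32-fold, 1.91 to 6.06). Hspa14, an HSP70 bound to ribosomes, had 1145 and 995 reads in the exhausted and effector libraries (1.06-fold, 0.976 to 1.16), with an interval across equality.

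The promoter sequence around the inducible pair is shown because both genes carry the same heat shock element words. In the RefSeq promoter windows (build GRCm38.p6, 250 bases before to 50 after each start site), a heat shock element was searched as GAANNTTCNNGAA on both strands, exact or with 1 mismatch among its fixed letters. Capitals mark the match in each sequence, read 5′ to 3′ on the strand of the gene. Hspa1b and Hspa1a (chr17:34959305-34959382 and chr17:34972223-34972300, both minus strand) have overlapping 1-mismatch matches from -114 to -97 relative to the start, and the 78 bases shown are identical. Hsph1 (chr5:149636288-149636300, minus strand) has an exact match just after its start, and Dnaja1 (chr4:40722339-40722351, plus strand) a 1-mismatch match from -129 to -117. Hspe1 and Hspd1 are transcribed away from each other and share the block at chr1:55088059-55088076, printed once per gene on its own strand (plus for Hspe1, minus for Hspd1), with overlapping exact matches.
Hspa1b: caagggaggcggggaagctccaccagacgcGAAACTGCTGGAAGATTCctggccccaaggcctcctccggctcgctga
Hspa1a: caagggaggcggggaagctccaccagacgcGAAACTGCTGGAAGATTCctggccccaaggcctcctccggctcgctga
Hsph1: TTCTGGAAAGTTC
Dnaja1: CTCTAGAAAATTC
Hspe1: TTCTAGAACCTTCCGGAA
Hspd1: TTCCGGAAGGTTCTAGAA

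An exact heat shock element was present in 0.603% of all 32851 windows and in 6.06% of the 99 windows of 79 members, which belong to Hsph1, Hspe1, Hspd1 and Dnajb6. Their log2 ratios ranged from -0.27 for Dnajb6 to 2.36 for Hsph1, with a median of 1.03, and 2 of the 4 were called higher. The 55 measured members with a window and no exact match had a median of 0.21 and 9 called higher. Hspe1 and Hspd1 share the same block, and 4 genes are few. With 1 mismatch allowed the shares were 7.22% of all windows and 21.2% of member windows. At that looser setting 14 measured members had a match, with a median log2 ratio of 0.24 and 4 called higher. The 45 measured members with a window and no match had a median of 0.25 and 7 called higher. Over all measured genes 6.65% were called higher. Of the 15 higher members 11 had a window, and Hspa8, Hsp90aa1, Hsp90ab1 and Hyou1 are not in these counts. The matches are described as letters in these windows and not as bound sites.

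Nucleotide exchange factors, which release ADP from HSP70 and so let it drop its client, came next in size. Hsph1 (HSP105, chromosome 5, 149614287 to 149636376, minus strand) had 5187 reads in the exhausted library and 931 in the effector library, a ratio of 5.15-fold (4.80 to 5.53). Its relative Hspa4l had 2338 reads in the exhausted library and 360 in the effector library, a ratio of 6.00-fold (5.37 to 6.73). Hspa4, the third cytosolic HSP110, behaved otherwise, with 2174 and 1747 reads in the exhausted and effector libraries (1.15-fold, 1.08 to 1.23). On the TPM scale Hsph1 stood at 303.4 TPM in the exhausted library and 54.7 TPM in the effector library, while Hspa4 stood at 131.2 TPM and 105.8 TPM in the exhausted and effector libraries. Hspa4 was therefore above Hsph1 per length in the effector library and below it in the exhausted library.

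The BAG family holds further exchange factors, and 1 of 6 genes was called higher, beside 6.65% of all measured genes. Bag3, which links HSP70 to autophagy and is a known HSF1 target, had 170 reads in the exhausted library and 55 in the effector library (2.86-fold, 2.10 to 3.95). Bag1, the most abundant of the family per length, had 1261 and 965 reads in the exhausted and effector libraries (1.21-fold, 1.11 to 1.32). Bag4, Bag6, Bag2 and Bag5 had ratios of 1.64, 1.34, 1.11 and 0.999, and the family sum gave 1.27-fold (1.21 to 1.34).

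HSP90 mRNA was higher for both cytosolic forms. Hsp90ab1, the constitutive beta form, had 27902 reads in the exhausted library and 8172 in the effector library, a ratio of 3.16-fold (3.08 to 3.24). Hsp90aa1, the alpha form known as the inducible one, had 7212 reads in the exhausted library and 2660 in the effector library, a ratio of 2.51-fold (2.40 to 2.62). The constitutive form thus had the larger ratio, and its share of cytosolic HSP90 reads was 79.5% in the exhausted library (79.0 to 79.9) and 75.4% in the effector library (74.6 to 76.3). Of the 75-base words of Hsp90aa1, 53.1% also occur elsewhere, mostly in a pseudogene that itself had 92 and 21 reads in the exhausted and effector libraries. Hsp90ab1 shares only 0.736% of its words. Per length Hsp90ab1 stood at 3085 TPM in the exhausted library and 907 TPM in the effector library, and it and Hspa8 were the most abundant members in both. The order of this pair is uncertain, since the table gives Hspa8 3158 bases and its longest coding transcript in GENCODE M21 has 2394. Hspa8 and Hsp90ab1 together held 31.4% of all member reads in the exhausted library (31.2 to 31.7) and 20.1% in the effector library (19.8 to 20.3).

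**Figure D2:**
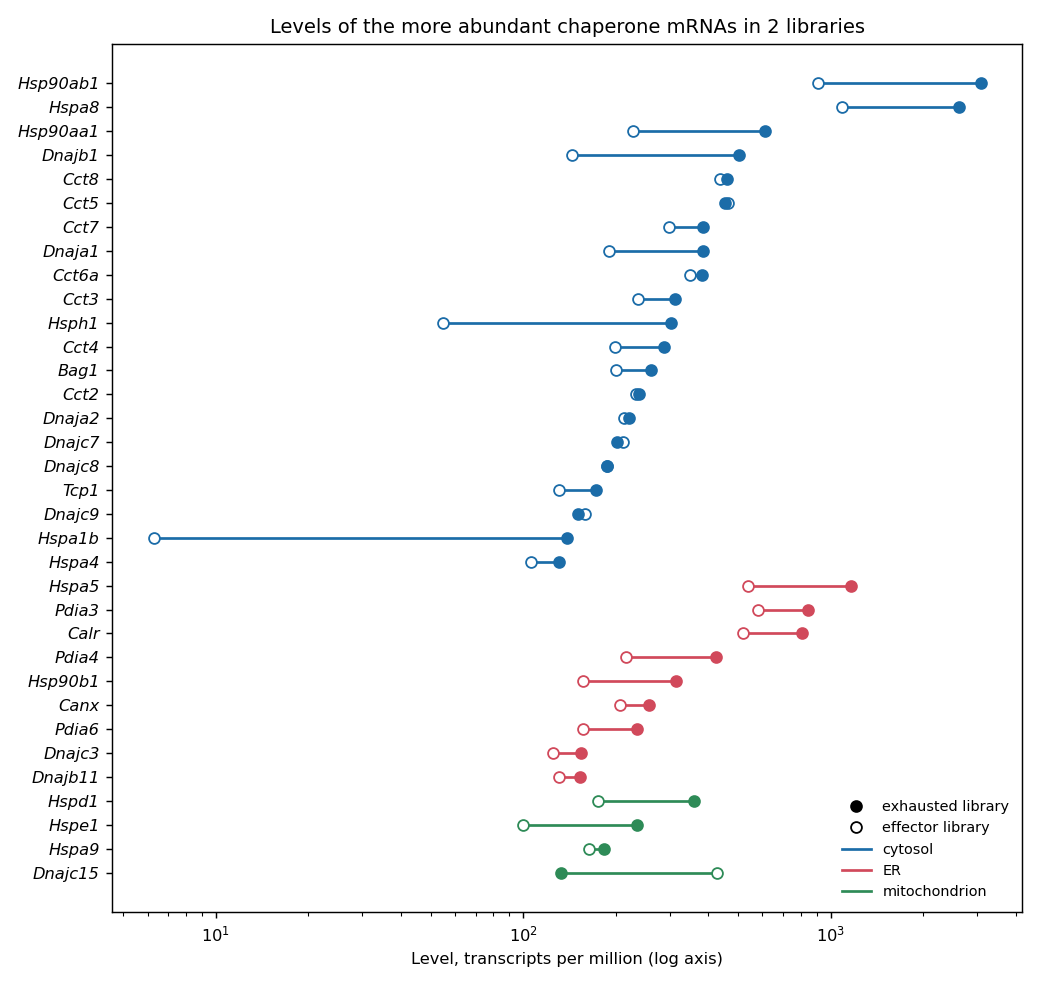
The plot gives levels of the more abundant members in TPM on a log axis, filled for the exhausted library and open for the effector library, grouped by compartment with no error bars. Hsp90ab1 and Hspa8 are at the top of the range in both libraries, Hspa1b spans 138.9 TPM in the exhausted library and 6.29 TPM in the effector library, and Dnajc15 lies in the opposite order at 132.4 TPM in the exhausted library and 426.2 TPM in the effector library.

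J-proteins deliver clients to HSP70 and stimulate its ATPase, and their 35 measured members split. Dnajb1, the class B protein known as HSP40 and the usual partner of inducible HSP70, had 4089 reads in the exhausted library and 1167 in the effector library, a ratio of 3.24-fold (3.03 to 3.46). By level per length it ranked 7 among the members in the exhausted library and 27 in the effector library. Dnajb2, a class B protein, had 345 and 145 reads in the exhausted and effector libraries (2.20-fold, 1.81 to 2.69). The class B sum was 1.69-fold (1.63 to 1.76), and the sum of its 9 cytosolic members 2.05-fold (1.95 to 2.15). Both rest largely on Dnajb1, which held 72.4% of the reads of the 9 in the exhausted library and 45.8% in the effector library.

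Class A had no member past the rule. Dnaja1, the most abundant class A protein, had 7746 reads in the exhausted library and 3810 in the effector library (1.88-fold, 1.81 to 1.95). Other loci share 26.2% of the 75-base words of Dnaja1, so part of its reads is uncertain. Its exons also overlap Smu1 on the other strand, which had 1493 and 1581 reads in the exhausted and effector libraries. Dnaja2, of the same class and compartment as Dnaja1, had 2249 and 2155 reads in the exhausted and effector libraries (0.965-fold, 0.909 to 1.02). Just under 2-fold lay Dnajb13, a J-protein of sperm and cilia, with 129 and 60 reads in the exhausted and effector libraries (1.99-fold, 1.45 to 2.75). Its exons overlap those of Ucp2 on the other strand, which had 18830 reads in the exhausted library and 10363 in the effector library, so its reads are uncertain. Dnajb6, which suppresses aggregation, had 811 and 903 reads in the exhausted and effector libraries (0.830-fold, 0.754 to 0.914). Other loci share 39.5% of its 75-base words.

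Class C, the most varied J-proteins, had 0 of 21 measured members higher and 1 lower, beside 6.65% and 7.07% of all measured genes. Many of its proteins serve other tasks than general folding, such as the spliceosome (Dnajc8), histones (Dnajc9), ribosomes (Dnajc2) or vesicles (Dnajc5), and their ratios were 0.928, 0.879, 1.14 and 1.01. Dnajc7, a J-protein that binds both HSP70 and HSP90, had 1687 and 1754 reads in the exhausted and effector libraries (0.889-fold, 0.831 to 0.951). The highest ratio of the class was that of Dnajc1, an ER membrane partner of BiP, with 809 and 412 reads in the exhausted and effector libraries (1.82-fold, 1.61 to 2.05).

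TRiC folds actin and tubulin, and none of its 8 measured subunits passed the rule, beside 6.65% higher and 7.07% lower over all measured genes. Cct4 had the highest ratio, with 2565 reads in the exhausted library and 1760 in the effector library (1.35-fold, 1.27 to 1.43). Cct5 had the lowest, with 3093 reads in the exhausted library and 3138 in the effector library (0.911-fold, 0.867 to 0.958). Between them Cct3, Tcp1 and Cct7 had ratios of 1.22, 1.22 and 1.21, and Cct6a, Cct8 and Cct2 ratios of 1.02, 0.982 and 0.949. The 8 subunits, which assemble in equal numbers in the complex, lay between 172.7 and 460.5 TPM in the exhausted library (median 346.8) and between 131.0 and 463.1 TPM in the effector library (median 266.7). This spread is uncertain, since it depends on the gene lengths of the table. Tcp1, the lowest in both libraries, has 3419 bases there, but its longest coding transcript in GENCODE M21 has 2446. For Cct3 these lengths are 3335 and 1977 bases.

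In the ER, Hspa5, Hyou1 and Dnajb14 passed the rule, and the lectins and the luminal J-proteins of BiP had smaller ratios. Hspa5 (BiP, chromosome 2, 34771970 to 34776531, plus strand), the ER HSP70, had 10887 reads in the exhausted library and 5016 in the effector library, a ratio of 2.01-fold (1.94 to 2.08) that sits at the threshold. Hyou1, the exchange factor of BiP known as GRP170, had 623 reads in the exhausted library and 197 in the effector library, a ratio of 2.92-fold (2.49 to 3.45). Hsp90b1 (GRP94), the ER HSP90, had 3631 and 1809 reads in the exhausted and effector libraries (1.86-fold, 1.75 to 1.96). Hspa13, a microsomal HSP70 relative, had 245 and 138 reads in the exhausted and effector libraries (1.64-fold, 1.33 to 2.04). Hspa5, Hyou1 and Hsp90b1 belong to the textbook targets of the unfolded protein response. Other genes of that response and of ER-associated degradation, given below, had 0 of 14 measured higher and 1 lower, with a median log2 ratio of 0.16. Over all measured genes 6.65% were higher and 7.07% lower, so such counts in a small list say little. Dnajb14, an ER membrane J-protein that faces the cytosol, was the remaining ER member past the rule, at 104 and 48 reads in the exhausted and effector libraries (2.003-fold, 1.41 to 2.88).

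Disulfide isomerases form and shuffle the disulfide bonds of secretory proteins. Pdia4 (ERp72) had 3778 reads in the exhausted library and 1912 in the effector library (1.83-fold, 1.73 to 1.93). Pdia6 and Pdia3 (ERp57, the partner of the lectins) had smaller ratios of 1.39-fold (1.29 to 1.49) and 1.34-fold (1.30 to 1.39), although Pdia3 was the most abundant isomerase of the set at 841.0 TPM in the exhausted library and 580.6 TPM in the effector library. The lectins hold glycoproteins until they are folded. Calreticulin (Calr) had 6304 reads in the exhausted library and 4054 in the effector library (1.44-fold, 1.38 to 1.50), and calnexin (Canx) had 3955 and 3171 reads in the exhausted and effector libraries (1.15-fold, 1.10 to 1.21).

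Luminal J-proteins of BiP had smaller ratios than BiP itself. Dnajc3 (P58IPK), Dnajb11 (ERdj3) and Dnajb9 (ERdj4) had ratios of 1.14-fold (1.08 to 1.21), 1.09-fold (1.01 to 1.18) and 1.21-fold (0.961 to 1.52). Their summed reads were 4447 in the exhausted library and 3645 in the effector library (1.13-fold, 1.08 to 1.18), a sum chosen after the values were seen. The membrane-bound BiP partner Dnajc1, given above at 1.82-fold, is not in it. Nor is the luminal J-protein Dnajc10, whose ratio was below equality, so the sum depends on which genes are taken. Dnajc10 (ERdj5), which reduces disulfides of proteins bound for degradation, was the ER member with the lowest ratio, with 808 reads in the exhausted library and 1177 in the effector library (0.635-fold, 0.580 to 0.695).

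ER stress elements are shown because every exact match found among the members fell in an ER gene. The element was searched as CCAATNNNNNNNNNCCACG on both strands of the same RefSeq windows, and it overlaps no heat shock element shown. Capitals mark the match, read on the strand of the gene, so that a match beginning CGTGG is the element in the reverse direction. The stretches shown lie at chr2:34772025-34772043 for Hspa5 (plus strand), chr10:86705608-86705686 and chr10:86705510-86705581 for Hsp90b1 (minus), chr8:84847045-84847123 for Calr (minus), chr11:50325770-50325848 for Canx (minus), chr12:17266461-17266539 for Pdia6 (plus) and chr14:118937797-118937875 for Dnajc3 (plus).
Hspa5: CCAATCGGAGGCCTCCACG
Hsp90b1, far element: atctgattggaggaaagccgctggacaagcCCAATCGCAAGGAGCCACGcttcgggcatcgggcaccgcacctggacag
Hsp90b1, near element: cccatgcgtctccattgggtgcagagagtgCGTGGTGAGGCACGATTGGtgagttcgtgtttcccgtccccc
Calr: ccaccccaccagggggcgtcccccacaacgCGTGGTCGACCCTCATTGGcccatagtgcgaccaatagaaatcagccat
Canx: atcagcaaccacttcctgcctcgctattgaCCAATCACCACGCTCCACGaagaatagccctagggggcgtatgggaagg
Pdia6: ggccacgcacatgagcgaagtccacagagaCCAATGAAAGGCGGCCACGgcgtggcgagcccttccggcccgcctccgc
Dnajc3: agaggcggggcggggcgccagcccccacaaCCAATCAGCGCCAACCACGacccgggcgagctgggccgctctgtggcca

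The exact element was present in 0.119% of all windows, 39 of 32851, and in 6.06% of member windows. It occurred in 6 of 16 measured ER members with a window and in 0 of 34 cytosolic members. The 6 genes with it had log2 ratios between 0.19 for Dnajc3 and 1.005 for Hspa5, with a median of 0.50, and 1 of the 6 was called higher. The 53 measured members with a window and no exact element, 34 of them cytosolic, had a median of 0.20 and 10 called higher. Over all measured genes 6.65% were called higher.

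**Figure D3:**
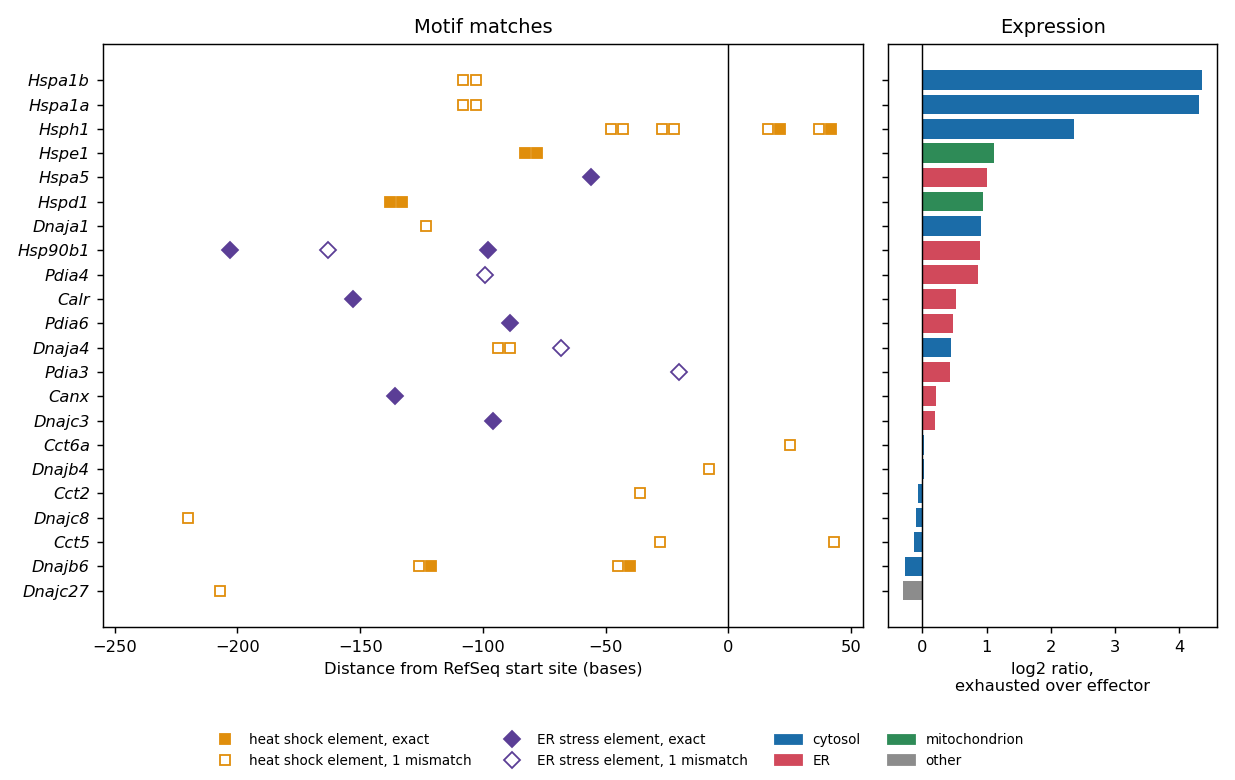
The left panel places each match to the heat shock element (squares) and the ER stress element (diamonds) by its distance in bases from the RefSeq start site for measured members, filled where exact and open with 1 mismatch; genes with several start sites show matches of each window. The right panel gives the log2 ratio of exhausted over effector scaled counts, running from 4.36 for Hspa1b to -0.31 for Dnajc27, and shows genes with heat shock element matches at both ends.

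Within the mitochondrion the chaperonin and the HSP70 system differed in size. Hspe1 (HSP10), the lid of the chaperonin, had 809 reads in the exhausted library and 345 in the effector library (2.17-fold, 1.91 to 2.47). Hspd1 (HSP60), its barrel, had 3131 reads in the exhausted library and 1513 in the effector library (1.91-fold, 1.80 to 2.04). Their gene spans overlap by 112 bases on opposite strands, and other loci, processed pseudogenes among them, share 29.1% of the 75-base words of Hspe1 and 33.7% of those of Hspd1, so part of their reads is uncertain. Hspa9 (mortalin), the mitochondrial HSP70, had 2011 and 1790 reads in the exhausted and effector libraries (1.04-fold, 0.974 to 1.11), and its J-protein Dnaja3 had a ratio of 1.08-fold (0.967 to 1.20).

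Dnajc15, an inner membrane J-protein of protein import also known as MCJ and described as a brake on respiratory complex I, was the lower member with the most reads. It had 308 reads in the exhausted library and 987 in the effector library, which is 3.47-fold lower in the exhausted library (3.05 to 3.95). Its relative at the import motor, Dnajc19 (TIM14), had 362 and 392 reads in the exhausted and effector libraries (0.854-fold, 0.738 to 0.987). Among members by level per length Dnajc15 ranked 33 in the exhausted library and 8 in the effector library. These ranks use the 648 bases of the table, whereas its longest coding transcript in GENCODE M21 has 6193 bases, so its level against other genes is uncertain. No 75-base word of its transcript occurs in another gene.

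Small heat shock proteins hold unfolding proteins without ATP, and their genes had few reads. Hspb1 had 1 read in the exhausted library and 0 in the effector library, Hspb6 had 25 and 14 reads in the exhausted and effector libraries, and Hspb2, Hspb3, Hspb7 and Hspb8 had 0 in both, where a count of 0 allows up to 3 reads. Hspb8 is the usual partner of Bag3. The only measured gene of that name, Hspb11, encodes the intraflagellar transport subunit IFT25 and is not a classical member; it had 26 reads in the exhausted library and 71 in the effector library, 2.95-fold lower (1.86 to 4.82). Among the other genes under 50 reads were the testis and tissue-restricted forms Hspa1l, Dnajb3, Dnajb7, Dnajb8, Cct6b, Pdia2 and Hspb9.

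By compartment, 11 of 40 measured cytosolic members were higher and 0 lower, 3 of 19 ER members higher and 0 lower, 1 of 9 mitochondrial members higher and 1 lower, and 0 of 4 elsewhere higher and 1 lower. Over all measured genes 6.65% were higher and 7.07% lower, so counts of 0 or 1 in such small sets say little. The compartments had these medians and sums. Median log2 ratios of the cytosol, the ER, the mitochondrion and elsewhere were 0.27, 0.43, 0.11 and -0.15, so by the median the ER set stood above the cytosolic one. By summed reads the order was the reverse, with 1.84-fold (1.82 to 1.85) for the cytosol and 1.47-fold (1.44 to 1.49) for the ER, and the cytosolic genes with the most reads were among those with high ratios. The cytosol held 67.8% of member reads in the exhausted library (67.6 to 68.0) and 61.5% in the effector library (61.2 to 61.8), and the ER held 25.8% in the exhausted library (25.6 to 26.0) and 29.4% in the effector library (29.1 to 29.6).

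The same family could be compared across compartments by summed reads. HSP70 had 2.25-fold (2.20 to 2.29) in the cytosol, 1.997-fold (1.93 to 2.06) in the ER and 1.04-fold (0.974 to 1.11) in the mitochondrion. HSP90 had 2.997-fold (2.93 to 3.06) in the cytosol and 1.86-fold (1.75 to 1.96) in the ER. HSP110 had 2.95-fold (2.83 to 3.08) in the cytosol and 2.92-fold (2.49 to 3.45) in the ER. The ER values of HSP90 and HSP110 are Hsp90b1 and Hyou1 alone, and the mitochondrial HSP70 value is Hspa9 alone. By the median, HSP110 had 5.15-fold in the cytosol, so its near equality with the ER holds for the sum only. Median ratios of HSP70 were 3.32-fold in the cytosol and 1.81-fold in the ER. J-proteins had 1.41-fold (1.38 to 1.44) in the cytosol and 1.08-fold (1.04 to 1.12) in the ER, but by the median log2 ratio the order was the reverse, at -0.08 in the cytosol, with 7 of 16 measured genes above equality, and 0.16 in the ER, with 7 of 10. The nuclear J-proteins Dnajc8, Dnajc9 and Dnajc17 were counted in the cytosol, at 0.928, 0.879 and 0.742-fold. These lie below equality, so the cytosolic median depends on that placing. Dnajb12 and Dnajb14, which face the cytosol from the ER membrane, were counted in the ER, at 0.909 and 2.003-fold. The J-protein and the following groupings were chosen after the values were seen. The cytosolic HSP70, HSP110 and HSP90 genes had 8 of 10 measured members higher and a summed 2.62-fold (2.59 to 2.66), and all other cytosolic members had 3 of 30 higher and 1.23-fold (1.21 to 1.24), beside 6.65% of all measured genes higher.

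**Figure D4:**
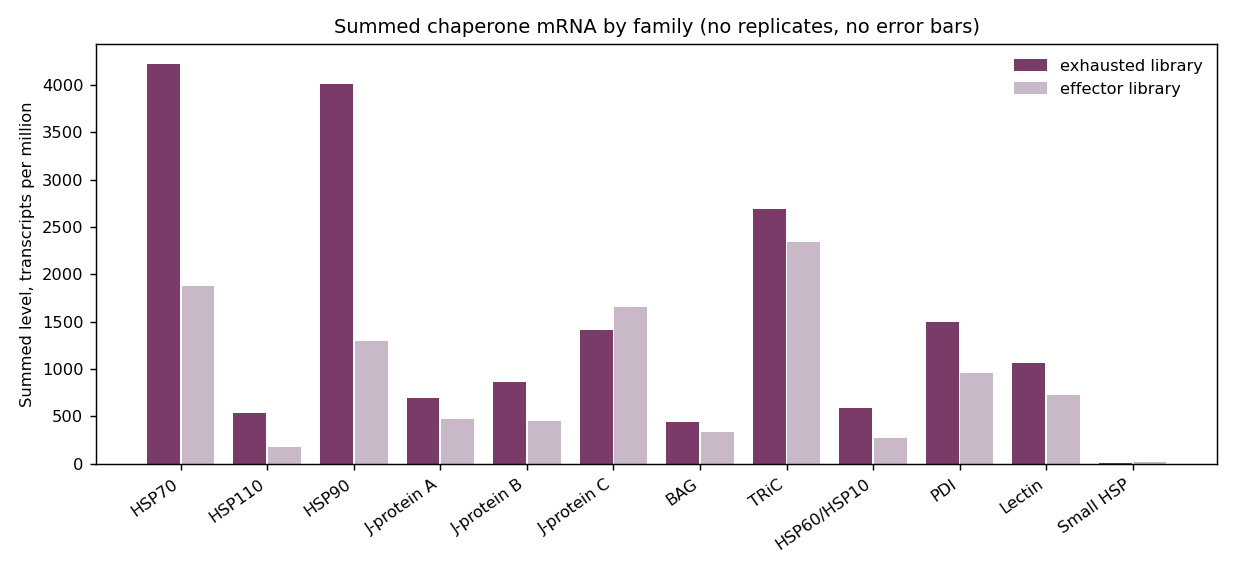
Bars give the summed level of each family in TPM, starting at 0, dark for the exhausted library and light for the effector library, with no error bars because there are no replicates. HSP70 reaches 4219 TPM in the exhausted library and 1871 TPM in the effector library and HSP90 4012 TPM and 1291 TPM in the exhausted and effector libraries, while TRiC stands at 2693 TPM and 2343 TPM in the exhausted and effector libraries.

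Partner genes outside the members were read from 5 lists, beside 6.65% higher and 7.07% lower over all measured genes. Of 16 genes for heat shock factors and co-chaperones of HSP70 and HSP90, 3 were higher and 0 lower, with a median log2 ratio of 0.27. Ahsa2, a relative of the HSP90 ATPase activator, had 728 reads in the exhausted library and 222 in the effector library (3.03-fold, 2.61 to 3.54), but 47.2% of its exon bases overlap Usp34 on the other strand. Stip1 (HOP), which passes clients between HSP70 and HSP90, had 4159 and 1837 reads in the exhausted and effector libraries (2.09-fold, 1.98 to 2.21). St13 (HIP), which steadies HSP70 on its client, had 2810 and 1231 reads in the exhausted and effector libraries (2.11-fold, 1.97 to 2.26). Hsf1 mRNA itself had 886 and 749 reads in the exhausted and effector libraries, 1.09-fold.

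The remaining lists held few calls, beside 6.65% higher and 7.07% lower over all measured genes. Of 9 prefoldin genes and TRiC cofactors 0 were called, with a median log2 ratio of -0.35, and Pfdn4, a prefoldin subunit, had the lowest ratio at 0.643-fold (0.450 to 0.912). Of 18 measured genes of ER folding and glycoprotein control 0 were called, with a median of 0.26 and the highest ratio for Creld2 at 1.69-fold (1.45 to 1.96). Of 14 measured genes of the unfolded protein response and ER-associated degradation 0 were higher and 1 lower, with a median of 0.16. Xbp1, a transcription factor of the response, had 1673 and 817 reads in the exhausted and effector libraries (1.89-fold, 1.74 to 2.06). Syvn1, a ubiquitin ligase of ER-associated degradation, had 1.81-fold (1.63 to 2.03). Edem1, a mannosidase-like protein that marks glycoproteins for degradation, had 1106 reads in the exhausted library and 3521 in the effector library, 3.44-fold lower (3.22 to 3.69). Of 9 genes of mitochondrial folding and proteolysis 0 were called, with a median of -0.18.

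Sorting and handling of cells are known to raise immediate early genes, so these were read beside the inducible chaperones. Of 12 such genes 9 were measured, 0 were higher and 1 lower, beside 6.65% and 7.07% of all measured genes. The summed reads of the 12 genes were 16864 in the exhausted library and 16619 in the effector library (0.938-fold, 0.918 to 0.958). Fos had 590 reads in the exhausted library and 1585 in the effector library, and Jun had 572 and 898 reads in the exhausted and effector libraries. Egr1 went the other way, with 3134 reads in the exhausted library and 1650 in the effector library (1.76-fold, 1.65 to 1.86). In all, 4 of the 9 measured genes had ratios above equality. Besides Egr1 these were Btg2, Ier2 and Zfp36, at 1.31, 1.19 and 1.14-fold. The part of handling in the chaperone ratios was not tested.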

How the data were processed

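RNA of sorted TEa cells was sequenced in 2 libraries, made per the labels' protocols from flash-frozen cells with Trizol and a low-input Takara kit. No molecular identifiers are recorded, so PCR copies may be counted repeatedly and the counting intervals may be too narrow. The authors deposited whole-number read counts per gene with gene lengths. Per the submitters' processing notes STAR 2.6 and mm10 were used; how reads were counted, with which strand setting and annotation, is not given in the sources used here.

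Counts were scaled by edgeR 4.0.16 trimmed-mean effective library sizes (R 4.3.3) from the 9999 genes whose reads over both libraries came to 50 or more. Ratios carry exact Clopper-Pearson intervals (scipy 1.17.1, confidence level 95%) of the reads in the exhausted library among the reads in both. A library at 0 reads was set to 3. The calling rule was tested on simulated counts with counting error only, so that test holds no spread between animals. TPM were computed from counts and lengths. Families, compartments and partner lists came from textbook roles, and members and lists were chosen with earlier results of these data known. Genes named are the members called, the most abundant members and those with the highest and lowest ratio in each family, a fixed set of well-known chaperones, and the called and most different partner genes. Others were named outside this rule, after their values were seen. These are members near the 2-fold limit, class C J-proteins given as examples, members under 50 reads, Hspa13, Hspa14, Bag2, Bag4, Dnajb12, Dnajc27 and Hsf1. Exon overlap and shared 75-base words came from GENCODE M21, promoters from RefSeq (GRCm38.p6), with windows for 79 of 96 members. Values for 1 of the cell type markers are not reported here.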

Additional observations from a re-analysis of the deposited data

How the results depend on the processing

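Ratios of members were recomputed with upper quartile scaling, DESeq2 1.42.0 size factors, unadjusted totals, read minimums of 1 and 500, a prior count of 2, the deeper library thinned, stricter size rules, and sums without the most-read member or without Hspa1a and Hspa1b. No called value changed sign. Higher members numbered 14 to 16 under the other scalings, the prior count and thinning, beside 6.44% to 6.77% of all genes. At 500 reads 10 of 50 members (20%) were higher, beside 3.97% of all genes. With the interval wholly beyond 2-fold 10 of 72 were higher (13.9%, beside 4.08% of all genes), and 4 at 4-fold (2.20% of all genes). Lower members numbered 4 with a minimum of 1 read, 1 at 500 reads, 1 with the interval wholly beyond 2-fold and 0 at 4-fold, beside 6.21%, 4.30%, 4.53% and 2.38% of all genes. Dnajb14 slipped under the threshold with unadjusted totals, at a log2 ratio of 0.998, and Hspa5 lies close to it. Without Hspa8 the summed log2 ratio of HSP70 was 0.88, under 2-fold. Without Hspd1 that of HSP60/HSP10 rested on Hspe1 alone and was 1.12, over 2-fold. Other sums fell to log2 0.11 for class B without Dnajb1, -0.002 for class A without Dnaja1 and -0.05 for the mitochondrion without Hspd1. Uncalled medians also changed sign, for members outside the 3 compartments (0.20 at 500 reads) and TRiC (-0.002 at 1 read), as did the log2 ratio of Bag5 near 0. No paired analysis was possible because each group has 1 library. The spread between animals is unknown, and members with few reads, such as Hspa1a in the effector library, have wide intervals.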
